A study of Homo sapiens with 3 samples.

Results

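Amino acid transporters were read across RNA sequencing libraries of LNCaP-abl cells in which the transcription factor E2F1 had been silenced. The members were taken by symbol, as every listed gene named SLC1A, SLC3A, SLC6A, SLC7A, SLC36A, SLC38A or SLC43A followed by digits only, which gave 41 of the 22613 genes listed in each library. LNCaP-abl cells descend from the LNCaP prostate cancer line and grow without androgen, and all cells here were grown in medium with charcoal-stripped serum, which is poor in steroids. The siE2F1 group was 1 library from cells transfected with a pool of siRNAs against E2F1, and the control group was 2 libraries, numbered 0 and 1, from cells transfected with control siRNA by the same lipid reagent. RNA was taken 72 h after transfection in each case. Separate cultures are not stated for the controls, so the spread behind each p-value may be that of technical repeats, and no siE2F1 value has a replicate.

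Cells cannot make all the amino acids they need, and charged or polar molecules do not cross the membrane unaided, so import depends on carrier proteins of the solute carrier (SLC) families. Some carriers exchange one amino acid for another, some use the sodium gradient to concentrate them, and some work inside the cell at the lysosome, where breakdown of protein releases amino acids. Heteromeric carriers pair a glycoprotein heavy chain of the SLC3 family, which brings the complex to the surface, with a light chain of the SLC7 family, which does the transport. E2F1 activates genes needed for S phase, and dividing cells take up amino acids to build protein. Several carriers in these families are also known targets of ATF4, the transcription factor of the amino acid response. The SLC6 family adds carriers of neurotransmitters, creatine and taurine, which the symbol rule takes in as well.

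Levels are given as FPKM, which is per length of transcript, and differences on the scale of log2(FPKM + 1), where changes of scarce transcripts come out too small. E2F1 itself stood at 1.68 FPKM in the siE2F1 library, against 10.6 and 10.6 FPKM in the controls (log2 fold change -2.12, limma adjusted p = 0.0311). E2F1 did not pass when 0.1 in place of 1 was added to FPKM (limma adjusted p = 0.0601, log2 fold change -2.59), nor when low genes were kept (limma adjusted p = 0.159, log2 fold change -2.12). No read counts were at hand, and sequencing depth is therefore unknown. Pearson's r across genes, small RNA genes left out, was 0.98 between siE2F1 and control 0, 0.979 between siE2F1 and control 1 and 0.994 between the controls, and genes are not independent replicates. Of 11 luminal and LNCaP markers 9 reached a mean of 1 FPKM, among them KRT8, while KLK3 and KLK2 were below 0.5 FPKM in each library. Of 15 markers of basal, neuroendocrine, leukocyte, fibroblast and endothelial cells 7 were listed. The fibroblast markers summed to 0.761 FPKM in siE2F1, against 1.16 FPKM in control 0 and 0.952 FPKM in control 1. The endothelial sum was 0.837 FPKM in siE2F1, against 0.696 and 0.769 FPKM, and the neuroendocrine sum 0.37 FPKM, against 0.355 and 0.295 FPKM. The basal marker listed was at 0 in each library. The leukocyte markers summed to 6.09 FPKM in siE2F1, against 6.31 and 6.44 FPKM in the controls, most of it CD68, a lysosomal protein. In bulk RNA, fewer cells of a kind cannot be told apart from less RNA per cell.

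Of the 41 transporters, 26 averaged 1 FPKM or more and entered the test. With siE2F1 against control, 17 of these 26 lay below both controls and 8 above both, while 39.7% of all 14401 genes tested lay below and 43.7% above. The median log2 fold change of the 26 was -0.14, and that of all genes tested was 0.01. The median size of the log2 fold change, sign left out, was 0.22 for the transporters and 0.18 for all genes tested. The log2 fold change was over 0.5 in size for 4 transporters, and the share of all genes tested over that size was not counted. SLC7A5 (-0.94), SLC43A2 (-0.54) and SLC1A4 (-0.54) were lower in siE2F1 and SLC38A7 (0.59) was higher, and none of these passed the test. SLC1A4 entered the test only through its higher values in the controls. In limma, with Benjamini-Hochberg adjustment over all genes tested, 0 transporters passed in either direction, where 0.312% of genes were called higher and 0.104% lower. At an unadjusted p under 0.05 there were 2 higher (SLC38A7 and SLC38A2) and 4 lower (SLC7A5, SLC3A2, SLC43A2 and SLC1A4), beside 13.5% and 14.9% of all genes tested. The controls were at least 1 log2 unit apart for 45.7% of the small RNA genes tested and for 0.337% of the rest. In a fit without small RNA genes SLC38A7 was called higher and SLC7A5 and SLC43A2 lower, beside 4.17% of genes called higher and 6.36% lower. The test takes its spread from the difference between the 2 controls, which leaves 1 residual degree of freedom. Limma draws that spread toward a trend over all genes tested, with a weight of 1.69 degrees of freedom, and 3.19 without small RNA genes.

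**Figure D1:**
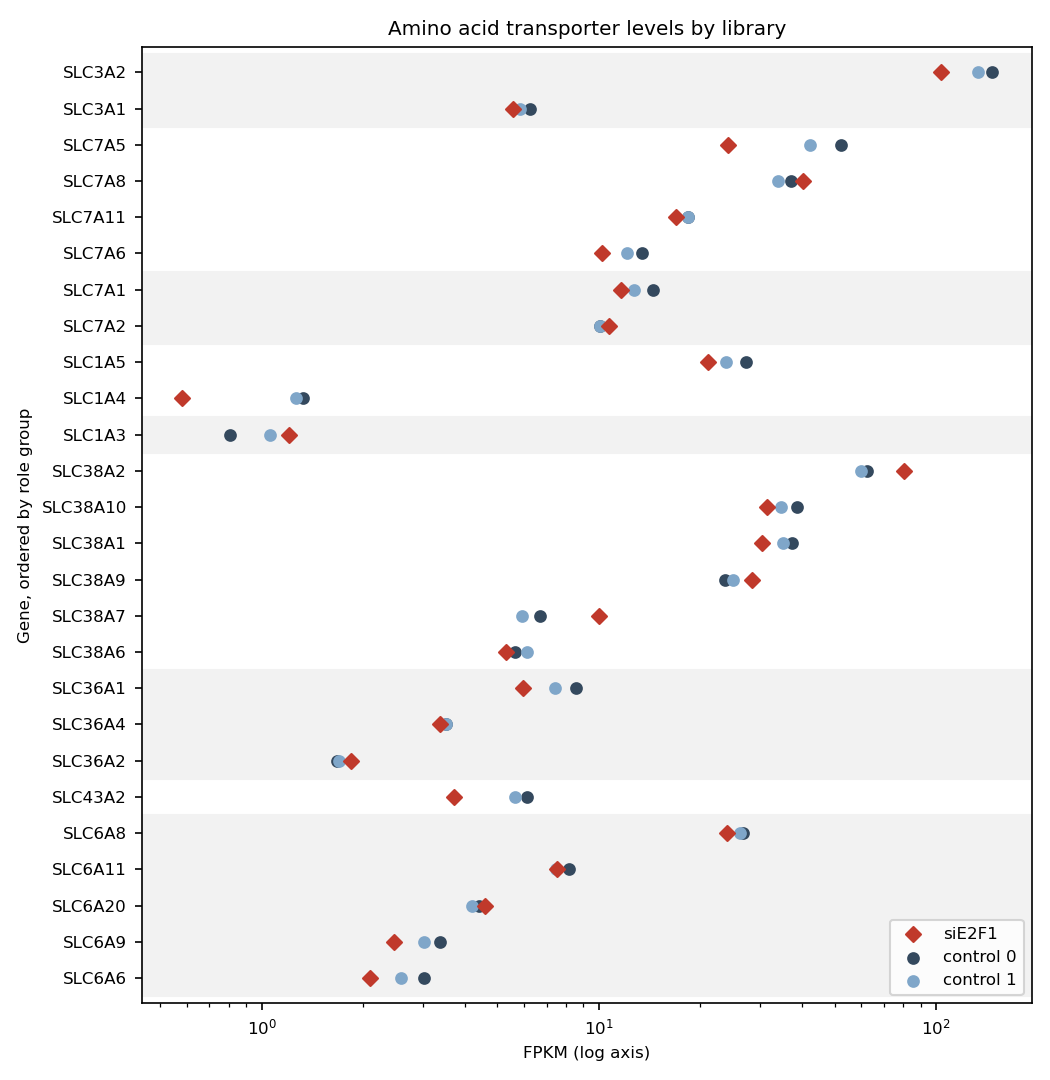
FPKM of the 26 tested amino acid transporters (log axis) in siE2F1 (diamonds), control 0 and control 1 (circles), ordered by role group with shaded bands. SLC3A2 is the highest in each library, and SLC7A5 stands at 24.2 FPKM in siE2F1, left of both controls.

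A difference was also set against the spread of the controls by asking whether siE2F1 lay beyond both by more than the distance between them. This held for 12 transporters on the lower side and 5 on the higher side, beside 29.1% and 30.4% of all genes tested. Control 1 was itself below control 0 for 21 of the 26 transporters (80.8%), against 48.9% of all genes tested. Among the 17 transporters below both controls, 15 had control 1 below control 0, so that control 1 lay between control 0 and siE2F1. The part of this order of the controls in the lower values was not tested. In GENCODE v29, 9 of the 26 share exon bases with a gene on the other strand, from which reads cannot be separated because the kit keeps no strand, among them 780 of 3332 bases of SLC1A5 and 116 of 4587 bases of SLC7A5. Against control 1 alone the median log2 fold change of the transporters was -0.12, and against control 0 alone it was -0.15. Both use the same siE2F1 library, and the median of all genes against a single control was not computed.

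**Figure D2:**
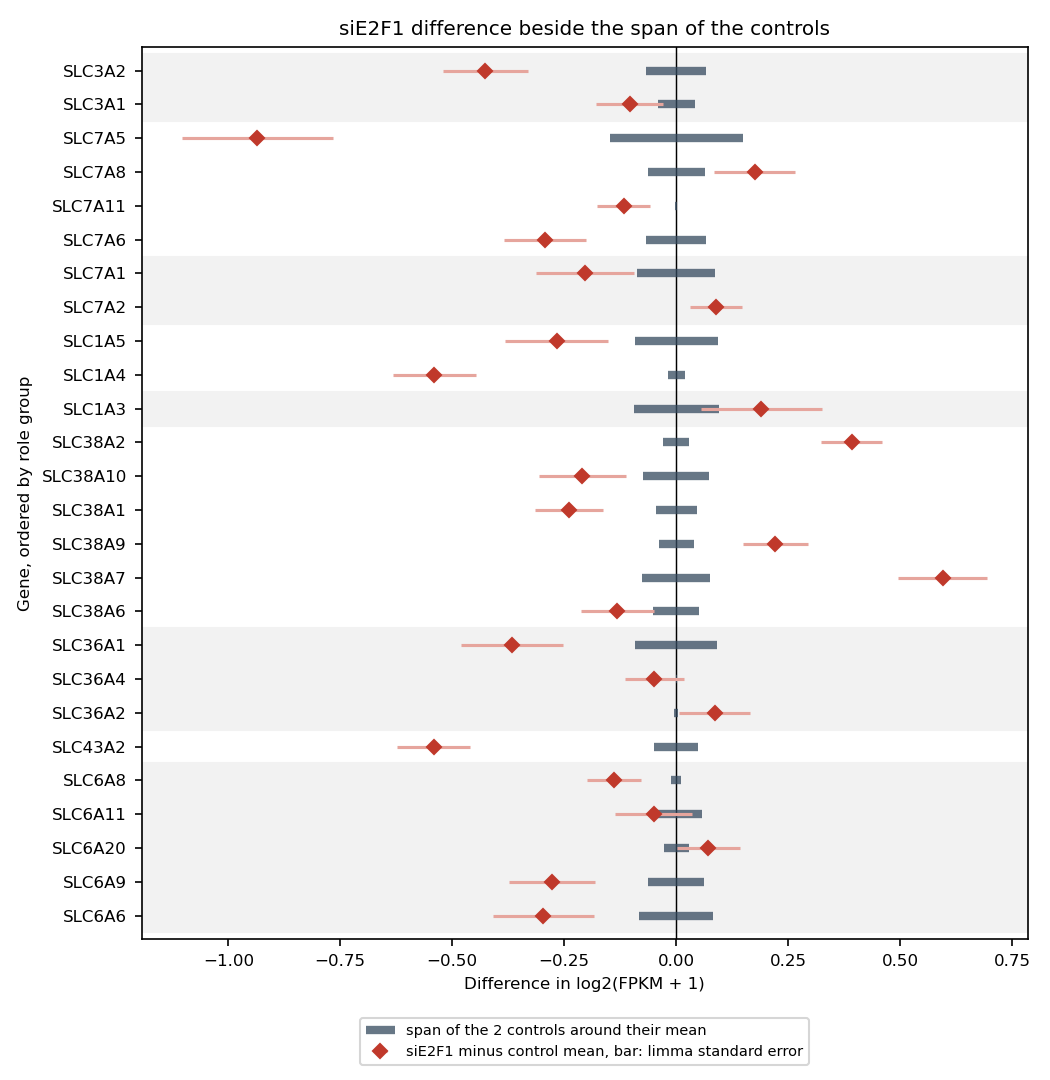
Difference between siE2F1 and the control mean in log2(FPKM + 1) for the 26 tested transporters (diamonds, horizontal bars are limma standard errors), with the span of the 2 controls around their mean as a dark bar. SLC7A5 lies at -0.94 and SLC38A7 at 0.59, both outside the span of the controls.

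The start regions of the 6 transporters with an unadjusted p under 0.05 are shown so that motifs of E2F and ATF4 can be looked for in them. Each runs from 250 bases before to 50 bases after a gene start, 5′ to 3′ on the strand of the gene, from RefSeq on GRCh38.p14, a later build than the hg19 of the expression values. Capitals mark matches, on either strand, to an E2F core (TTCCCGC or TTGGCGC) or to the core of the C/EBP-ATF response element (TGATGNA), and where a gene has several listed starts the one with a match is shown. The windows lie at chr16:87869458-87869757 (minus strand, SLC7A5), chr11:62881449-62881748 (plus strand, SLC3A2), chr17:1604985-1605284 (minus strand, SLC43A2), chr2:64989149-64989448 (plus strand, SLC1A4), chr16:58684721-58685020 (minus strand, SLC38A7) and chr12:46372724-46373023 (minus strand, SLC38A2).
SLC7A5: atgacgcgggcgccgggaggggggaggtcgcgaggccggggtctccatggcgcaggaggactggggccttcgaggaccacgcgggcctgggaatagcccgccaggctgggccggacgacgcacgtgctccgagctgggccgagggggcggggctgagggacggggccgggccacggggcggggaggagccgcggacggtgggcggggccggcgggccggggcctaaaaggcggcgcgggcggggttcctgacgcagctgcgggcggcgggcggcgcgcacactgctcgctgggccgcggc
SLC3A2: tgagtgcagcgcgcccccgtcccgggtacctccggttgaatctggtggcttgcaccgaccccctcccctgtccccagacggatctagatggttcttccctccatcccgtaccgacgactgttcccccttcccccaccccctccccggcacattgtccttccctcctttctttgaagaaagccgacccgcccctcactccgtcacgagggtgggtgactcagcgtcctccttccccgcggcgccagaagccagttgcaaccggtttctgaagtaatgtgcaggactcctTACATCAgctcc
SLC43A2: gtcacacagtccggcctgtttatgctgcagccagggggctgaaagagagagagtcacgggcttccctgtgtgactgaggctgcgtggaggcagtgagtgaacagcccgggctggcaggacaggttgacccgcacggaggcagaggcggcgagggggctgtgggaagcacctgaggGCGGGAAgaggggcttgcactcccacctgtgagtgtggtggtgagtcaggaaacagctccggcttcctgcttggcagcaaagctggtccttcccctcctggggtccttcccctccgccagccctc
SLC1A4: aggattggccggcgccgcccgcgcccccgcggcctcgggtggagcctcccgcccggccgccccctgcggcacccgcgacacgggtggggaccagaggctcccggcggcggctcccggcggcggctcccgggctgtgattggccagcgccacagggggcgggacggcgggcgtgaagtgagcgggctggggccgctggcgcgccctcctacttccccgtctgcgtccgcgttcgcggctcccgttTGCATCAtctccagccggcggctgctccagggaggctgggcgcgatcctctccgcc
SLC38A7: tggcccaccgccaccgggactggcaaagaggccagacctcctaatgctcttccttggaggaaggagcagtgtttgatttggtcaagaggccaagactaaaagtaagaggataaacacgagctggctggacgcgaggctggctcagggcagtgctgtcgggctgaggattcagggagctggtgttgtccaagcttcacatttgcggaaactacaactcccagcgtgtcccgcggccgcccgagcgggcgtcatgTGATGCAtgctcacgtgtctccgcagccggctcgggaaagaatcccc
SLC38A2: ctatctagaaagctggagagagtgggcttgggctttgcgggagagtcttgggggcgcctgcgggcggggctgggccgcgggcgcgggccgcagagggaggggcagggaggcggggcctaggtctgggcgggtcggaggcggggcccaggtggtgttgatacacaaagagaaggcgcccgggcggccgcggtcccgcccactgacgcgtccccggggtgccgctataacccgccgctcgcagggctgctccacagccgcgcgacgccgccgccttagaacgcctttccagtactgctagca
The SLC3A2 and SLC38A7 windows each held 1 match to the C/EBP-ATF core, which began at base 39 of the SLC3A2 transcript and at base 4 of the SLC38A7 transcript. The SLC1A4 window held 1 that began 6 bases before the start, the SLC43A2 window held 1 E2F core that began 75 bases before the start, and the SLC7A5 and SLC38A2 windows held none. SLC7A5 and SLC38A2 had 1 window each to search, SLC1A4 and SLC38A7 had 2, and SLC3A2 and SLC43A2 had 3. Genes with more windows had more room for a match. Of the 26 tested transporters 22 had windows in the table, 40 windows in all, some of which overlap. The C/EBP-ATF core was in 7 of these 40 windows and in 9.99% of all 35116 windows, and at least 1 of the E2F cores was in 6 of the 40 and in 9.23% of all (6.55% for TTCCCGC and 3.04% for TTGGCGC). A match of letters describes the window only, and which start these cells use was not measured.

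The heavy chain SLC3A2 (CD98, also 4F2hc) was the most abundant transporter of the set. It was at 103.5 FPKM in siE2F1, against 146.1 FPKM in control 0 and 133 FPKM in control 1. The siE2F1 library was below both controls by more than they differed, at 74.1% of the control mean. The log2 fold change of -0.43 had a standard error of 0.09 and did not pass in limma (adjusted p = 0.139), nor without small RNA genes (adjusted p = 0.0615, range 0.0615 to 0.208 over all settings). The other heavy chain, SLC3A1 (rBAT), partners the cystine carrier of kidney and gut. It was at 5.55 FPKM in siE2F1, against 6.24 and 5.84 FPKM in the controls, a gap to the nearer control smaller than the distance between the controls. SLC3A1 shares 1892 of 6541 exon bases with PREPL on the other strand, so its level is uncertain.

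SLC7A5 (LAT1) is the light chain of SLC3A2 that imports leucine and other large neutral amino acids, and it had the largest log2 fold change in size of the 26 with a pseudocount of 1. It was at 24.2 FPKM in siE2F1, against 52.4 FPKM in control 0 and 42.4 FPKM in control 1. The siE2F1 value was 51% of the control mean, although the controls also stood apart from each other for this gene. The log2 fold change of -0.94 had a standard error of 0.17. The adjusted p in limma was 0.123, became 0.0403 once small RNA genes were left out, and it ranged up to 0.2 over the settings tried. Against control 1 alone the log2 fold change was -0.79, and against control 0 alone it was -1.08. The near-identical pseudogenes SLC7A5P1 and SLC7A5P2 were at 3.07 and 3.05 FPKM in siE2F1, against 3.85 and 3.57 FPKM in control 0 and 3.36 and 3.31 FPKM in control 1. The sources used here do not state how reads shared with these copies were assigned.

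The other light chains differed less. SLC7A8 (LAT2), a second exchanger of neutral amino acids, was at 40.3 FPKM in siE2F1, against 37.2 and 34 FPKM in the controls (log2 fold change 0.18, limma adjusted p = 0.314). The gap of SLC7A8 to its nearer control was smaller than the distance between the controls. SLC7A6 (y+LAT2), which exchanges cationic for neutral amino acids, was at 10.3 FPKM in siE2F1, against 13.4 and 12.2 FPKM in the controls (log2 fold change -0.29, limma adjusted p = 0.188). It shares 3371 of its 6356 exon bases with SLC7A6OS on the other strand, so its level is uncertain. SLC7A11 (xCT), which imports cystine for glutathione, was at 16.9 FPKM in siE2F1, against 18.4 and 18.4 FPKM in the controls, a log2 fold change of -0.12. The difference of SLC7A11 was small, although larger than the distance between its closely spaced controls. Of the light chains too low to test, SLC7A7 was at 0.362 FPKM in siE2F1, against 0.517 and 0.622 FPKM in the controls, and SLC7A9 and SLC7A13 were below 0.5 FPKM in each library.

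SLC7A8 was the highest light chain in siE2F1 and SLC7A5 was the highest in both controls, with a ratio of SLC7A5 to SLC7A8 of 0.6 in siE2F1, against 1.41 and 1.25 in the controls. SLC7A5 made up 26.1% of the summed light-chain FPKM in siE2F1, against 42.9% and 39.3% in the controls, and SLC7A8 made up 43.5%, against 30.4% and 31.5%. The share of SLC7A8 rises when SLC7A5 falls, since both are parts of the same sum. The 7 light chains together summed to 92.6 FPKM in siE2F1, against 122.2 and 107.9 FPKM in the controls. The level of SLC3A2 divided by that sum was 1.12 in siE2F1, against 1.2 and 1.23 in the controls, slightly below both.

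**Figure D3:**
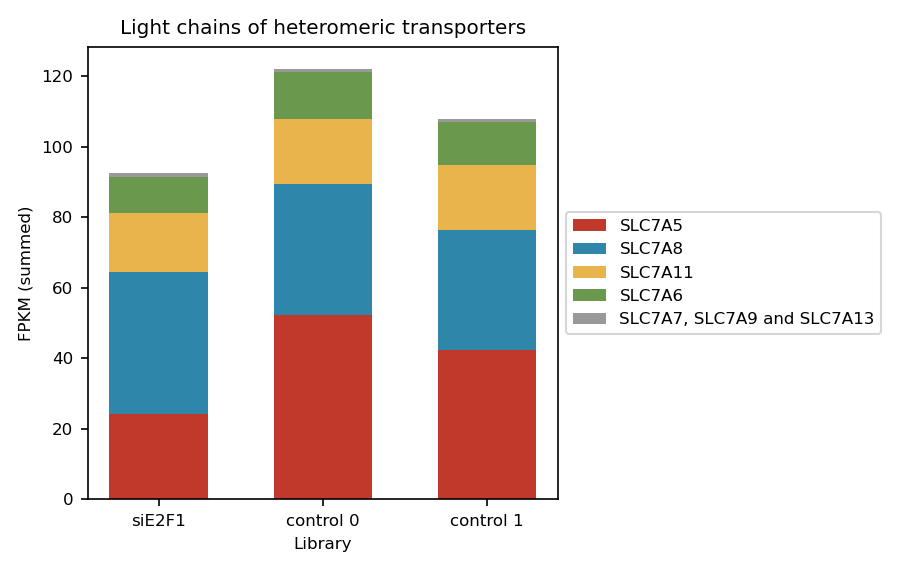
Summed FPKM of the 7 listed SLC7 light chains in siE2F1, control 0 and control 1, stacked by gene from 0. SLC7A5 takes 26.1% of the bar in siE2F1, against 42.9% and 39.3% in the controls, and SLC7A8 takes 43.5%, against 30.4% and 31.5%.

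The cationic carriers, which bring in arginine and lysine, gave small differences. SLC7A1 (CAT1) was at 11.7 FPKM in siE2F1, against 14.5 and 12.7 FPKM in the controls (log2 fold change -0.20), which is within the distance between the controls from the nearer one. SLC7A2 (CAT2) was at 10.8 FPKM in siE2F1, against 10.1 and 10 FPKM in the controls (log2 fold change 0.09). Neither passed in limma (adjusted p = 0.326 for SLC7A1 and 0.4 for SLC7A2). SLC7A14, a relative, was too low to test, at 0.596 FPKM in siE2F1, against 0.557 and 0.552 FPKM in the controls.

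The neutral exchangers of the SLC1 family were both lower in siE2F1. SLC1A5 (ASCT2), which exchanges glutamine, was at 21 FPKM in siE2F1, against 27.3 and 23.9 FPKM in the controls (log2 fold change -0.27, limma adjusted p = 0.259). Its distance to control 1 was slightly less than the distance between the controls. SLC1A4 (ASCT1), which carries alanine, serine and cysteine, was at 0.581 FPKM in siE2F1, against 1.33 and 1.27 FPKM in the controls, which lay close together. Its log2 fold change of -0.54 (limma adjusted p = 0.12) became -1.04 with a pseudocount of 0.1, past the -0.96 of SLC7A5 there. At 44.7% of the control mean SLC1A4 had the lowest ratio of the 26 tested. Its mean of 1.06 FPKM over the libraries passed the filter only through the controls, where it was higher. The glutamate carriers were scarce. SLC1A3 (EAAT1) was at 1.2 FPKM in siE2F1, against 0.806 and 1.06 FPKM in the controls (limma adjusted p = 0.427), and its mean over the libraries exceeded 1 FPKM only through siE2F1 and control 1. SLC1A1 and SLC1A2 were below 0.5 FPKM in each library.

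The SLC38 family holds sodium-coupled carriers of small neutral amino acids at the surface and carriers at the lysosome. Of its 6 tested members, 3 lay above both controls and 3 below, beside 43.7% above and 39.7% below of all genes tested. SLC38A2 (SNAT2), the amino acid-regulated carrier of system A, was at 80.5 FPKM in siE2F1, against 62.4 and 59.9 FPKM in the controls. The controls were close and siE2F1 stood 31.7% above their mean. Its log2 fold change of 0.39 had a standard error of 0.07 (limma adjusted p = 0.121, and 0.0525 without small RNA genes, range 0.0525 to 0.188). SLC38A1 (SNAT1), the other system A member measured, was at 30.5 FPKM in siE2F1, against 37.4 and 35.1 FPKM in the controls (log2 fold change -0.24, limma adjusted p = 0.193). The ratio of SLC38A2 to SLC38A1 was therefore 2.64 in siE2F1, against 1.67 and 1.71 in the controls.

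SLC38A7 and SLC38A9, members that act at the lysosome, were higher in siE2F1. SLC38A7 (SNAT7), which exports glutamine and asparagine from the lysosome, was at 9.99 FPKM in siE2F1, against 6.67 and 5.91 FPKM in the controls. The siE2F1 value was above both controls by more than their distance and 58.9% above their mean, the largest increase of the 26 tested. Its log2 fold change of 0.59 had a standard error of 0.10, with a limma adjusted p of 0.119 in the whole table and 0.0432 once small RNA genes were left out (range 0.0432 to 0.194). SLC38A9, the lysosomal arginine sensor that signals to mTORC1, was at 28.5 FPKM in siE2F1, against 23.7 and 25 FPKM in the controls (log2 fold change 0.22, limma adjusted p = 0.196). SLC38A10 was at 31.6 FPKM in siE2F1, against 38.6 and 34.8 FPKM in the controls, and SLC38A6 at 5.29 FPKM, against 5.66 and 6.14 FPKM. For both of these the gap to the nearer control was smaller than the distance between the controls. SLC38A5 and SLC38A11 were below 0.5 FPKM in each library.

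Of the SLC43 and SLC36 carriers tested, SLC43A2, SLC36A1 and SLC36A4 were lower in siE2F1 and SLC36A2 was higher. SLC43A2 (LAT4), which lets large neutral amino acids such as leucine and phenylalanine cross without exchange, was at 3.72 FPKM in siE2F1, against 6.11 and 5.63 FPKM in the controls. The siE2F1 value was 63.4% of the control mean and lay below both controls by more than the distance between them on the log2(FPKM + 1) scale. Its log2 fold change of -0.54 had a standard error of 0.08, with a limma adjusted p of 0.112 in the whole table and 0.0428 once small RNA genes were left out (range 0.0428 to 0.19). The related SLC43A1 (LAT3) was too low to test, at 0.373 FPKM in siE2F1, against 0.548 and 0.421 FPKM in the controls. SLC36A1 (PAT1), a proton-coupled carrier found at the lysosome, was at 5.94 FPKM in siE2F1, against 8.54 and 7.4 FPKM in the controls (log2 fold change -0.37, limma adjusted p = 0.186). It was thus lower while the lysosomal SLC38A7 and SLC38A9 were higher. SLC36A4 was at 3.38 FPKM in siE2F1, against 3.53 and 3.52 FPKM in the controls (log2 fold change -0.05, limma adjusted p = 0.66). SLC36A2 was at 1.85 FPKM, against 1.67 and 1.69 FPKM (log2 fold change 0.09, limma adjusted p = 0.526).

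Of the 11 SLC6 genes listed, 5 were tested, with log2 fold changes of -0.30 for SLC6A6 to 0.07 for SLC6A20. SLC6A8, the creatine carrier, was the highest, at 24 FPKM in siE2F1, against 26.7 and 26.3 FPKM in the controls (log2 fold change -0.14, limma adjusted p = 0.263). Its pseudogene copy SLC6A10P was at 2.99 FPKM in siE2F1, against 3.98 and 3.84 FPKM in the controls. SLC6A6, the taurine carrier, was at 2.09 FPKM in siE2F1, against 3.02 and 2.59 FPKM in the controls, and SLC6A9 (GlyT1), a glycine carrier, at 2.47 FPKM, against 3.39 and 3.02 FPKM. SLC6A8, SLC6A6 and SLC6A9 were below both controls by more than the distance between them, and none passed in limma (adjusted p = 0.228 for SLC6A6 and 0.208 for SLC6A9). SLC6A20, a carrier of proline, was at 4.59 FPKM in siE2F1, against 4.42 and 4.22 FPKM in the controls. SLC6A11, a GABA carrier, was at 7.5 FPKM in siE2F1, between the controls at 8.17 and 7.46 FPKM.

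Among the 15 transporters not tested, levels ran from 0.0122 to 1.07 FPKM, and none was listed at 0 in any library. The highest of these values was that of SLC6A13 (GAT2, a carrier of GABA and taurine) in siE2F1, at 1.07 FPKM, against 0.524 and 0.374 FPKM in the controls. SLC6A4, the serotonin carrier, was at 0.543 FPKM in siE2F1, between the controls at 0.525 and 0.6 FPKM. SLC6A12, SLC6A14, SLC6A16 and SLC6A17 were below 0.5 FPKM in each library, where FPKM are unsteady and no direction is read.

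Other genes of amino acid handling were read from 5 lists, of which 113 of 122 genes were tested. None passed in limma with the whole table. At an unadjusted p under 0.05, 21 were higher and 21 lower (18.6% each), beside 13.5% and 14.9% of all genes tested. Without small RNA genes 7 were called higher (6.19%) and 12 lower (10.6%), beside 4.17% and 6.36% of genes. In the list of ATF4 and amino acid response genes, 18 of 28 were below both controls (64.3%, beside 39.7% of all genes tested) and 9 above (32.1%, beside 43.7%), and the median difference was -0.17 on the log2 scale, with 2 called higher and 4 lower without small RNA genes. CHAC1, which degrades glutathione, was at 2.41 FPKM in siE2F1, against 4.54 and 4.43 FPKM in the controls, and ATF3, a stress-induced factor, at 29.2 FPKM, against 44.2 and 42.3 FPKM. CTH, which makes cysteine from cystathionine, went the opposite way, at 5.56 FPKM in siE2F1, against 3.09 and 3.46 FPKM in the controls. The list thus held members on each side of the controls.

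The list of amino acid sensing by mTORC1 also holds MTOR, RHEB, TSC1, TSC2 and TFEB. Of its tested genes, 23 of 33 exceeded both controls (69.7%, beside 43.7% of all genes tested) and 8 were below them (24.2%, beside 39.7%). The median difference was 0.14 on the log2 scale. Without small RNA genes 3 were called higher and 0 lower, beside 4.17% and 6.36% of all genes in that fit. SESN1, a sestrin, was at 146.5 FPKM in siE2F1, against 71.4 and 75.3 FPKM in the controls. SESN3, another sestrin, was at 59.4 FPKM, against 34.9 and 34.5 FPKM, and the small GTPase RRAGB at 9.75 FPKM, against 6.5 and 6.89 FPKM. SESN2, a sestrin counted in the ATF4 list, went the other way, at 5.66 FPKM in siE2F1, against 7.65 and 7.78 FPKM in the controls. Its log2 fold change was -0.39 (limma adjusted p = 0.115). Sestrins restrain mTORC1 when leucine is scarce, through the GATOR complexes. The limma adjusted p was 0.111 for SESN1 and SESN3 and 0.112 for RRAGB in the whole table, and it was 0.0272 for SESN1, 0.0299 for SESN3 and 0.0436 for RRAGB once small RNA genes were left out, and at most 0.188 for each over all settings.

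The remaining lists held members on both sides, to be read beside the 43.7% of all genes tested that lay above both controls and the 39.7% below. Of the 15 other amino acid carriers tested, 4 exceeded both controls and 6 were below them (26.7% and 40%, median -0.03), with SLC16A10 (TAT1), a carrier of aromatic amino acids, at 2.34 FPKM in siE2F1, against 3.61 and 3.59 FPKM in the controls. The mitochondrial carriers SFXN2 and SLC25A13 had log2 fold changes of -0.42 and -0.38. Of 19 glutamine, glutamate and glutathione enzymes 10 were below both controls and 6 above (52.6% and 31.6%, median -0.04), led by glutamate dehydrogenase GLUD1 at 17.2 FPKM in siE2F1, against 30 and 30.1 FPKM in the controls. GLUD2, a near copy of GLUD1 that can share its reads, was at 4.2 FPKM, against 6.91 and 7.23 FPKM, and GPT, an alanine aminotransferase, had a log2 fold change of 0.63 with controls that stood apart. Of 18 genes of branched-chain amino acid breakdown 12 were above both controls and 4 below (66.7% and 22.2%, median 0.11). DBT, the E2 subunit of the branched-chain ketoacid dehydrogenase, was at 6.18 FPKM in siE2F1, against 11.8 and 12 FPKM in the controls, whereas PCCA, a subunit of propionyl-CoA carboxylase, was at 10.1 FPKM, against 6.98 and 7.03 FPKM, and MCCC1, of leucine breakdown, had a log2 fold change of 0.42.

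**Figure D4:**
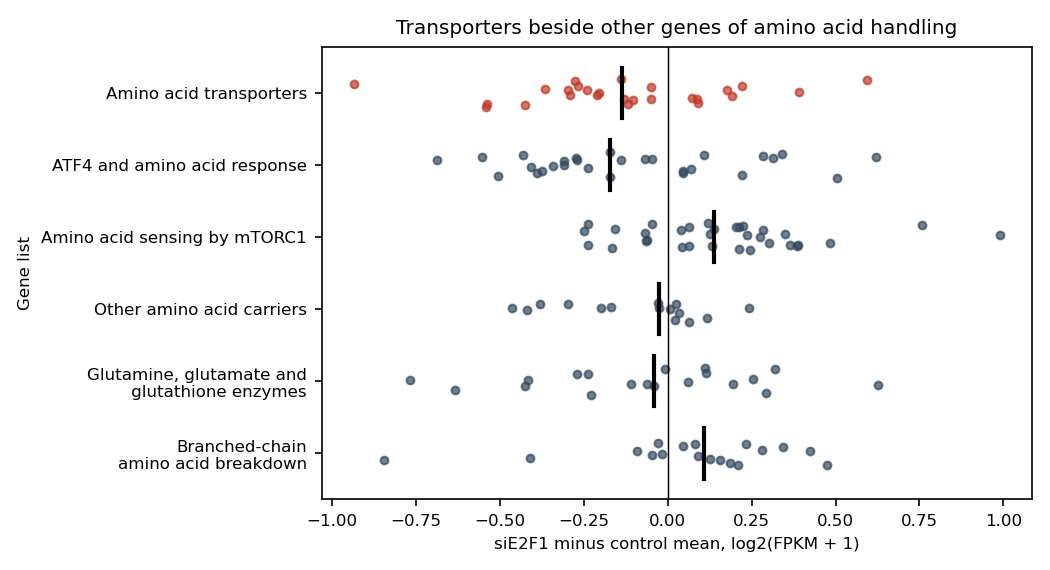
Difference between siE2F1 and the control mean in log2(FPKM + 1) for the 26 tested transporters and for the tested genes of 5 other lists (points, 1 per gene, scattered vertically for legibility), with the median of each list as a vertical bar. The medians of the transporters and of the ATF4 list lie at -0.14 and -0.17, and those of the mTORC1 sensing and branched-chain lists at 0.14 and 0.11.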

How the data were processed

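RNA was sequenced from LNCaP-abl cells 72 h after transfection with siRNA against E2F1 (1 library) or control siRNA (2 libraries), grouped by sample title. TopHat2 2.0.4 and Cufflinks 2.0.2 were used with the build hg19, per the submitters' processing notes, and the library kit was TruSeq RNA v2, per the labels' protocols. The authors deposited log2 FPKM for each gene, with a lowest value of log2 of 0.1. FPKM was taken here as 2 to the power of that value, less 0.1, which is 0.1 too low if 0.1 was a set minimum, a reading tried as an alternative. The sorted values of the libraries differ by at most 0.0653 log2 units, a pattern of quantile normalization that no source mentions, so a shift shared by most genes would not be seen. Depth is unknown, as no counts were given, and no interval can be set.

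Genes averaging 1 FPKM or more (14401 of 22613) were tested on log2(FPKM + 1) in R 4.3.3 with limma 3.58.1 (mean-variance trend, two-sided, Benjamini-Hochberg over all genes tested, threshold 0.05). The test gives the lone siE2F1 library the spread of the controls, and an exact permutation of 3 libraries could not give a p under 0.333. The alternatives were a pseudocount of 0.1, no filter, a mean of at least 5 FPKM, 0.1 as a minimum, a common median, quantile normalization, no trend, no small RNA genes (symbols starting SNOR, MIR, SCARNA or RNU, 473 tested) and each control left out. All tested transporters are named, as are up to 4 called genes of each other list, or the 3 farthest among those beyond the controls by more than the distance between them. SESN2 is named in addition, beside the other sestrins. Members and lists were chosen with earlier results of these data known. Older symbols were matched through RefSeq, so that 115 of 122 listed genes were found. Exon overlaps come from GENCODE v29 and figures from matplotlib 3.10.9.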

Additional observations from a re-analysis of the deposited data

How the results depend on the processing

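No paired analysis was possible because the siE2F1 group has 1 library and carries no number that it shares with a control. Of 253 transporter fold changes under the 10 alternatives, 140 equal the reported value, since filters, the trend and the left-out small RNA genes act on the test alone and a common median moved nothing and quantile normalization few, and these say nothing of stability; of the other 113, 112 had the same sign. SLC6A11 had a log2 fold change of 0.0073 without control 0 and of -0.11 without control 1, since it lay between them. Without small RNA genes 1 transporter was called higher and 2 lower, and 7 and 12 genes of the other lists, and the other alternatives with a test called none. With no filter on mean FPKM all 41 transporters counted, 15 of them above both controls and 23 below. Of these, 11 above and 15 below were beyond the controls by more than the distance between the controls. With a mean of at least 5 FPKM, 5 of 19 were above both and 13 below. These counts cover other sets of transporters, and the shares over all genes under these filters were not counted. Leaving out either control gave 8 to 9 transporters above and 17 to 18 below the remaining control, with medians of -0.15 to -0.12 and no test. The shares and the median of all genes tested against a single control were not computed, so these counts have no reference. A pseudocount of 0.1 moved the log2 fold change of the low genes SLC1A4 to -1.04 and SLC1A3 to 0.34. The limma adjusted p of E2F1 ranged from 0.0106 to 0.159, and the cause of its lost calls was not tested. The control spread was a median SD of 0.077 log2 units over the transporters. With 1 siE2F1 library and unknown depth, differences of that size could not be resolved. Larger ones did not pass with the whole table either, up to the log2 fold change of -0.94 for SLC7A5.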
